A study of Rattus norvegicus with 32 samples.

Results

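The 10 genes described here handle iron in the liver or set the level of hepcidin, the iron hormone. They were listed by symbol, with earlier results of these data known, and all are reported whatever their values. They are Hamp, Tf, Tfrc, Tfr2, Slc40a1, Fth1, Cp, Bmp6, Id1 and Smad7. All 10 were among the 17327 genes of the deposited count table, and all 10 were among the 11002 genes with enough reads to be tested. Messenger RNA was sequenced from livers of 32 Sprague Dawley rats from Charles River, 4 in each of 8 groups. Knockout (KO, Cbg-/-) rats, in which CRISPR/Cas9 editing had ablated Serpina6, the gene of corticosteroid-binding globulin (CBG), were compared with wild-type (WT, Cbg+/+) rats. Males and females of each genotype were taken at 60 days or at 30 days of age, with no treatment (basal conditions). CBG is a plasma protein made by the liver that carries corticosterone, and the study asked about its part in liver function and in sex differences of the adult liver. The labels do not give the edited site, the number of founders or the litters, so p-values measure the spread between these rats.

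Hepcidin is a peptide that hepatocytes secrete into blood, and it binds ferroportin, the iron exporter on cell surfaces, and has it degraded, so that less iron enters plasma. In mice, sinusoidal endothelial cells make BMP6 when iron is plentiful, and BMP6 acts on hepatocytes through SMAD proteins to raise transcription of Hamp and of other BMP targets, among them Id1 and Smad7. Transferrin carries iron in plasma, transferrin receptor 1 takes it into cells, transferrin receptor 2 senses it on hepatocytes, and ferritin stores it. Liver also makes ceruloplasmin, a copper protein that oxidises iron as it leaves cells.

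The promoters of 4 of the genes are shown because the results turn on these genes and because Hamp carries the elements through which its known inputs act. They are the 250 bases before the transcription start in RefSeq's annotation of the rat build GRCr8, which held an entry for 9 of the 10 genes, written 5′ to 3′ on the strand of the gene, with motif matches in capitals.
Hamp, chr1:95300272-95300521, minus strand: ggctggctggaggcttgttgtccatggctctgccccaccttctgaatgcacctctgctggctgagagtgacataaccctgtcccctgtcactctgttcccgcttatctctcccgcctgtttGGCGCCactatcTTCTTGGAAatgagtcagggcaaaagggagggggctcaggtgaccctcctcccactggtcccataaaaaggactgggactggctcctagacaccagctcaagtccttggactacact
Tfrc, chr11:81690319-81690568, minus strand: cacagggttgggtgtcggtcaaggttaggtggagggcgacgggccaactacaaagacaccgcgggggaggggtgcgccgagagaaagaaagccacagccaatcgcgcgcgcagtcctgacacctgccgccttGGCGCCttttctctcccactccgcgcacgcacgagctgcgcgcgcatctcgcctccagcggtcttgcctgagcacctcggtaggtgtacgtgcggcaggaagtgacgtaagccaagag
Id1, chr3:161671314-161671563, plus strand: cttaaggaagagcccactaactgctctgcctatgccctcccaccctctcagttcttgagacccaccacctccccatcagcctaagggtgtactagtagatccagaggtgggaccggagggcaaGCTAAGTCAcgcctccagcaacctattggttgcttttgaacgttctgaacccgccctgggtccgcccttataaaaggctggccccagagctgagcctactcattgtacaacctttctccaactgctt
Slc40a1, chr9:55543461-55543710, minus strand: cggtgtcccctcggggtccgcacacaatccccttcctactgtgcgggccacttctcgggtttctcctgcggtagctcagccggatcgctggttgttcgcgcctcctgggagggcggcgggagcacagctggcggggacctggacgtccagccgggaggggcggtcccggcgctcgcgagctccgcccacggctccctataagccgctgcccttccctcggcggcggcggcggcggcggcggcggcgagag
The capitals in Hamp mark a BMP response element, GGCGCC, at 129 to 124 bases before the start, and a STAT-type palindrome, TTCTTGGAA, at 117 to 109 bases before it. In Tfrc they mark GGCGCC at 118 to 113 bases before the start, and in Id1 they mark GCTAAGTCA, an antioxidant-type element read from the other strand, at 127 to 119 bases before it. The search covered both strands for the BMP element GGCGCC, for the STAT palindrome TTCNNNGAA and its form with 1 more spacer base, for the SMAD pair GTCTAGAC, for the E-box CACGTG and for the antioxidant element TGACNNNGC. In the printed stretch of Slc40a1 none of them was found. GGCGCC was also found at a pair of places in Smad7, and no motif was found in Tf, Tfr2, Cp or Bmp6. Of 33469 RefSeq promoters of 300 bases, 11.0% held GGCGCC, 8.87% held TTCNNNGAA and 12.1% held TGACNNNGC, so such matches are common and do not show that a site is used.

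Serpina6 itself was lower in KO in each of the 4 sex and age combinations, with log2 fold changes between -4.00 and -2.95, and in none of them did the KO and WT livers overlap. Between 12951969 and 21954929 reads per library fell on genes. Levels are given as CPM, reads scaled to a common library total, with TMM scaling between libraries. The least read of the 10 genes were Bmp6, with at least 19 reads per library, and Id1, with at least 29, while Tf took 4.27% to 5.76% of gene reads. All 8 hepatocyte markers were detected in every group. A single library stood apart. KO females of 60 days, replicate 1, had a sum of 2006 CPM over 13 photoreceptor genes, against 4.55 to 10.0 CPM in the other 3 livers of its group. Calls of the 10 genes that rest on this library, and counts of other iron genes, are given with and without it. Sex and age values of single other iron genes in KO, and the correlations over all livers, include it. Groups were compared with edgeR's quasi-likelihood test, and a gene was called where its p, adjusted by Benjamini-Hochberg over the 11002 genes, was below 0.05.

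The 10 genes differed widely in how much they varied between rats of the same group. Hamp, the gene of hepcidin, had a within-group SD of 0.774 on the log2 scale, and 2.00% of the tested genes had a larger one. Its highest liver exceeded its lowest by 1.76-fold in KO males of 30 days and by 8.78-fold in WT males of 60 days, with the other groups between. Id1 followed with an SD of 0.446, Tfrc with 0.354, Smad7 with 0.318 and Bmp6 with 0.297. Tf, the gene of transferrin, varied least, with an SD of 0.0794, and Tfr2 and Fth1 had SDs of 0.0959 and 0.108. A change of a given size was therefore harder to detect for Hamp than for Tf, Tfr2 or Fth1.

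**Figure D1:**
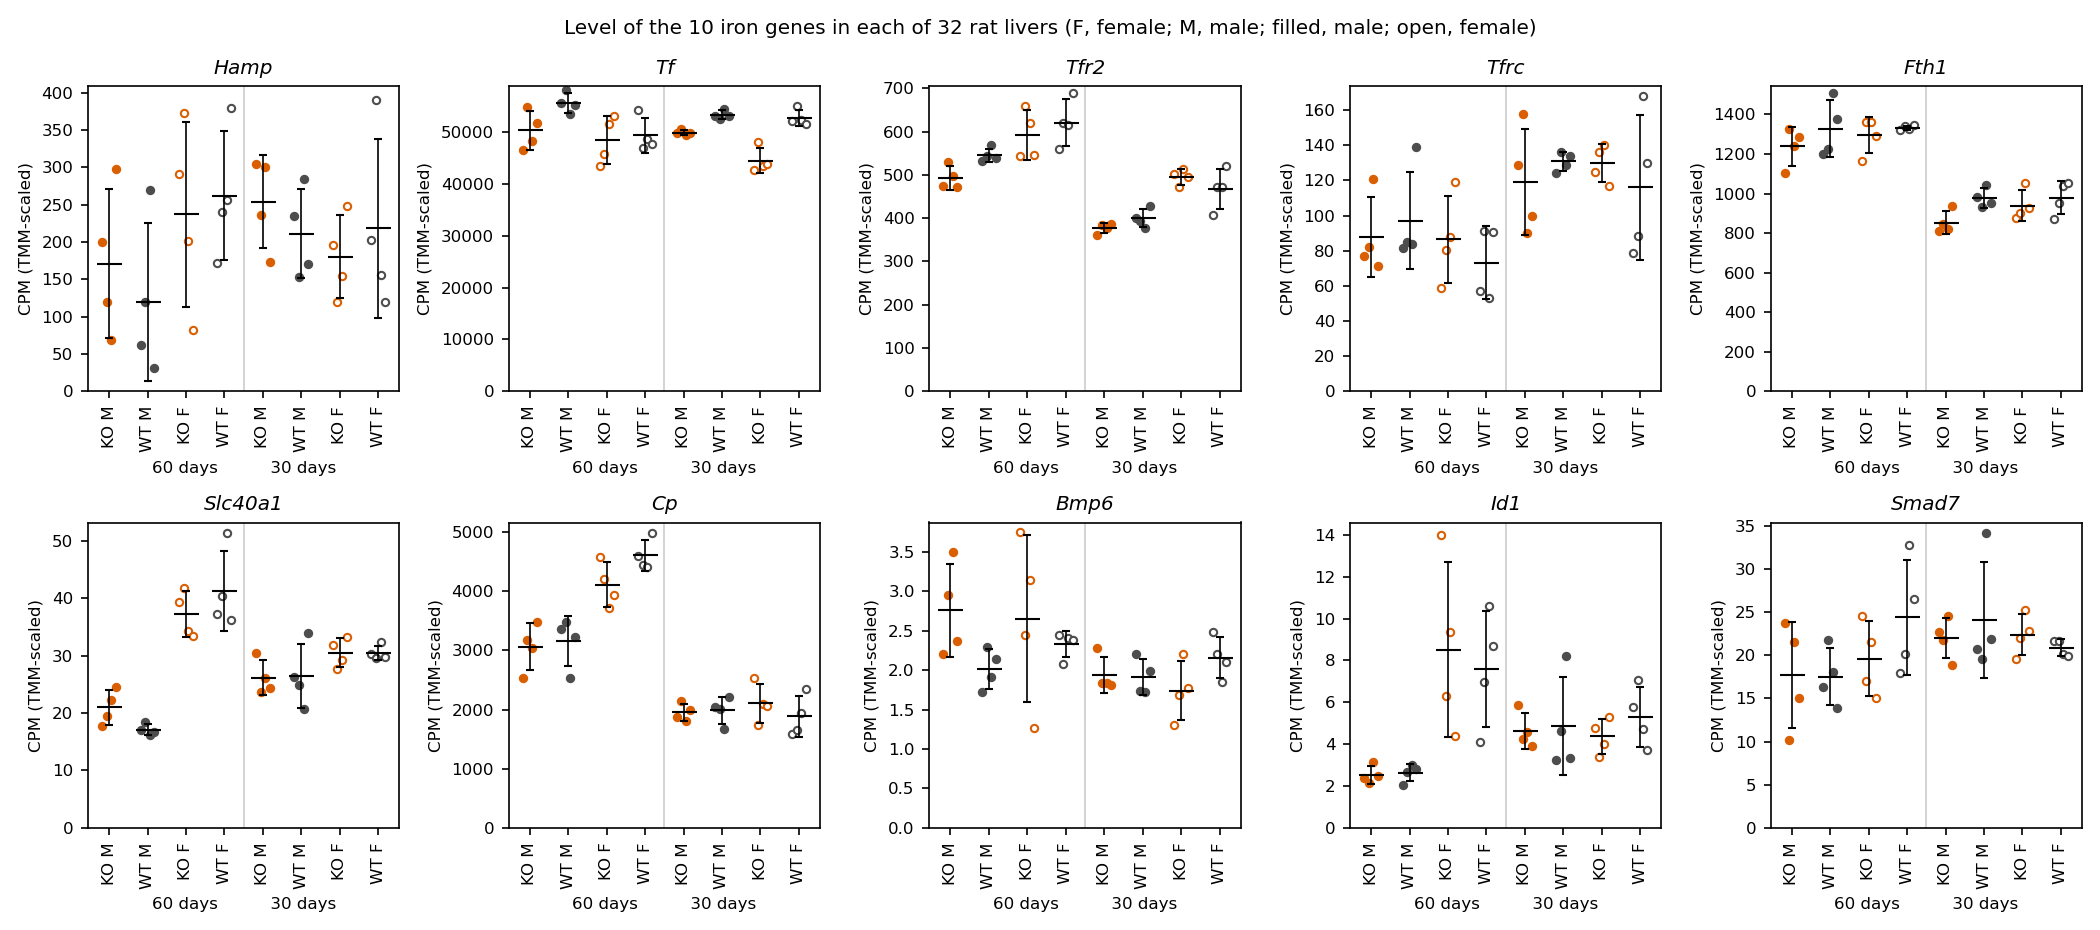
Level of each of the 10 iron genes (CPM after TMM scaling, linear axes from 0) in the 8 groups, 60 days left of 30 days; each point is 1 liver, and the bar and whiskers are the mean and SD of 4 livers. Slc40a1 and Id1 lie low in both groups of 60-day males, Cp and Fth1 lie high in every 60-day group, and Hamp spreads from 30.6 to 390 CPM.

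Loss of CBG was not accompanied by a called change of any of the 10 genes in any of the 4 sex and age combinations. By edgeR 0 of 10 were called in males of 60 days, where 0.209% of all tested genes were called, 0 in females of 60 days (6.77% of all), 0 in males of 30 days (0.0545%) and 0 in females of 30 days (0.3%). At an unadjusted p below 0.05 the counts were 3, 0, 1 and 1 in that order. limma-voom called 0 in each, and DESeq2 called 1, Tf in females of 30 days, at a log2 fold change of -0.26 (adjusted p = 0.00542).

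Hamp overlapped between the genotypes in every combination. At 60 days it had 200, 120, 68.9 and 298 CPM in KO males, against 62.2, 120, 269 and 30.6 CPM in WT males. It had 291, 372, 201 and 82.5 CPM in KO females of that age, against 172, 240, 256 and 379 CPM in WT females. The log2 fold change was 0.51 ± 0.53 in males and -0.15 ± 0.52 in females (SE, 4 livers per group), with 95% intervals of -0.58 to 1.60 and -1.23 to 0.94. A 2-fold rise in males and a 2-fold fall in females both lay within these intervals, so these values do not exclude either. At 30 days the log2 fold changes of Hamp were 0.27 ± 0.52 in males and -0.28 ± 0.52 in females.

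Tf was the 1 gene called when KO was set against WT over all 4 combinations together. It had 46518, 54874, 48365 and 51792 CPM in KO males of 60 days, against 55762, 58150, 53588 and 55289 CPM in WT males. In females of 30 days it had 42676, 48216, 43428 and 43919 CPM in KO livers, against 52169, 55043, 52401 and 51588 CPM in WT livers. In females of 30 days every KO liver lay below every WT liver, as it did in males of 30 days (49408 to 50559 CPM in KO and 52538 to 54583 CPM in WT), whereas the genotypes overlapped at 60 days in both sexes. The closing number of the sample titles was 2 in all KO females of 30 days. Among WT females of that age only replicate 4 had 2. Genotype and this number, whose meaning is not stated, are thus hard to tell apart there. With the number in the fit 8 genes were called in that comparison, against 33. The mean log2 fold change of the 4 combinations was -0.13 ± 0.03 (SE, adjusted p = 0.0308), a fall by a factor of 1.09, in a comparison in which 3.12% of all tested genes were called. The call was lost with a clock gene score in the fit (-0.10, adjusted p = 0.366), with limma on the deposited log2 values (adjusted p = 0.0747) and without any of 4 single livers, namely KO males of 30 days replicate 3, KO males of 60 days replicates 1 and 3 and WT females of 30 days replicate 2 (adjusted p 0.0511 to 0.0542). Per2, Per3 and Tef, which enter the clock score, were themselves called higher in KO in this comparison (log2 fold changes 0.71, 0.89 and 0.31). A fit with the score can therefore take up part of a genotype difference. The other 9 genes had mean log2 fold changes between -0.10 (Fth1) and 0.09 (Hamp and Bmp6).

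In males of 60 days the ligand and the exporter were higher in KO without passing the test. Bmp6 had 2.21, 2.96, 3.5 and 2.37 CPM in KO males, against 1.72, 2.30, 1.91 and 2.14 CPM in WT males (log2 fold change 0.46 ± 0.22, adjusted p = 0.463). Slc40a1, the gene of ferroportin, had 17.7, 19.4, 22.2 and 24.6 CPM in KO males, against 17.1, 18.4, 16.2 and 16.6 CPM in WT males (0.30 ± 0.13, adjusted p = 0.390). For both genes the lowest KO liver lay inside the range of WT. No gene of the 10 was called in the tests of whether the KO difference depended on sex, in which 0.136% of all genes were called at 60 days and 0 at 30 days, or on age, in which 0.00909% were called in males and 2.96% in females. At an unadjusted p below 0.05 these tests gave 1, 0, 0 and 1 of the 10 genes in that order. A p that missed the threshold in these tests does not show that the KO differences were alike.

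At 60 days the iron exporter and a BMP target were lower in males than in females of both genotypes. Of the 10 genes, 4 were called lower in KO males than in KO females and 0 higher, where 18.5% of all tested genes were called, and 3 were called lower in WT males than in WT females, where 26.4% were called. Slc40a1, Id1 and Cp were called in both genotypes. The median log2 fold change of the 10 genes was -0.21 in KO and -0.34 in WT, against -0.02 and 0.00 over all tested genes. At 60 days the sexes also differed in ambiguous reads, 0.554% to 0.648% in males and 0.314% to 0.466% in females. The numbers in the sample titles were lower in every male than in every female of that age. What these differences mean for the sex comparison was not tested.

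Slc40a1 had 17.7, 19.4, 22.2 and 24.6 CPM in KO males of 60 days, against 39.4, 41.8, 34.3 and 33.4 CPM in KO females. In WT it had 17.1, 18.4, 16.2 and 16.6 CPM in males, against 37.2, 40.3, 51.4 and 36.2 CPM in females. Every male lay below every female in both genotypes. Ferroportin transcripts were 1.77-fold lower in KO males (log2 fold change -0.83 ± 0.13, adjusted p = 1.16e-05) and 2.42-fold lower in WT males (-1.27 ± 0.13, adjusted p = 5.13e-09), and both calls held in all 11 alternative analyses and with any single liver left out. The 2 sex differences themselves were not called as different (0.45 ± 0.18, adjusted p = 0.349). Without KO females replicate 1 the KO difference was -0.80 (adjusted p = 6.82e-05).

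Kupffer cells, the liver macrophages that recycle iron from red cells, also express Slc40a1, so their markers were read beside it. The sum of 11 Kupffer cell and macrophage markers was 470 to 874 CPM in KO males of 60 days and 661 to 925 CPM in KO females, and 574 to 710 CPM in WT males and 752 to 1231 CPM in WT females. Of the 11 markers, 5 were called lower in WT males than in WT females (Cd5l, C1qa, C1qb, Csf1r and Adgre1), where 26.4% of all tested genes were called. In KO 1 of them, Marco, was called, higher in males than in females, where 18.5% of all were called. With the Kupffer marker score in the fit, an alternative chosen after seeing the data, Slc40a1 had -0.82 ± 0.10 in KO and -1.06 ± 0.11 in WT (adjusted p = 2.93e-07 and 2.26e-08). The score is a mean over markers that did not share 1 direction, so it is no measure of cell number. In bulk tissue fewer cells of a type and less RNA per cell cannot be told apart.

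Ordered by mean, Slc40a1 was highest in females of 60 days, at 37.2 ± 4.02 CPM in KO and 41.3 ± 6.97 CPM in WT (SD, n = 4 each). Females of 30 days came next, at 30.5 ± 2.58 CPM in KO and 30.5 ± 1.24 CPM in WT. Males of 30 days had 26.1 ± 3.04 CPM in KO and 26.4 ± 5.57 CPM in WT, and males of 60 days had 21 ± 3.03 CPM in KO and 17.1 ± 0.929 CPM in WT. Neighbouring groups in this order overlapped, except that every female of 60 days lay above every female of 30 days. Within WT, every male of 60 days also lay below every male of 30 days.

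Id1, a BMP target that encodes an inhibitor of helix-loop-helix transcription factors, was also lower in males at 60 days. It had 2.37, 2.14, 3.15 and 2.46 CPM in KO males of 60 days, against 14.0, 6.32, 9.35 and 4.41 CPM in KO females. WT males had 2.06, 2.68, 2.99 and 2.80 CPM, against 4.10, 6.99, 10.6 and 8.69 CPM in WT females. The males were close together and low, the females spread, and no male reached the lowest female. Id1 was 3.34-fold lower in KO males (-1.74 ± 0.33, adjusted p = 0.000247) and 2.90-fold lower in WT males (-1.53 ± 0.33, adjusted p = 0.000649), and the calls held in all 11 alternatives and with any single liver left out. Without KO females replicate 1, the highest of that group, the KO difference was -1.40 (adjusted p = 0.00238). The counts were small, with 134 reads in all over the 4 KO males and 155 over the 4 WT males.

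Cp, the ceruloplasmin gene, had 2532, 3177, 3038 and 3486 CPM in KO males of 60 days, against 4586, 4214, 3713 and 3931 CPM in KO females. It had 3364, 3488, 2535 and 3231 CPM in WT males, against 4589, 4451, 4407 and 4990 CPM in WT females. Again no male reached the lowest female of its genotype. The log2 fold change was -0.55 ± 0.12 in WT (adjusted p = 0.00114) and -0.43 ± 0.12 in KO (adjusted p = 0.0132). The KO call was lost without KO females replicate 1 (-0.37, adjusted p = 0.0546), without KO males replicate 1 (-0.35, adjusted p = 0.0719) and with a clock score in the fit (-0.32, adjusted p = 0.212), and the sums of 12 clock genes in KO females of 60 days ran from 206 to 360 CPM, with replicate 1 the highest.

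Tfr2, the transferrin sensor of hepatocytes, was lower in KO males than in KO females at both ages. At 60 days it had 475, 529, 497 and 471 CPM in KO males, against 543, 659, 619 and 546 CPM in KO females. At 30 days it had 360, 384, 378 and 386 CPM in KO males, against 501, 471, 514 and 496 CPM in KO females. Every KO male lay below every KO female at either age. The log2 fold change in KO was -0.26 ± 0.07 at 60 days (adjusted p = 0.0101) and -0.39 ± 0.07 at 30 days (adjusted p = 0.00203), where it was the 1 gene of the 10 called and 2.24% of all tested genes were called. In WT it was -0.19 ± 0.07 at 60 days (adjusted p = 0.0562) and -0.23 ± 0.07 at 30 days (adjusted p = 0.118), where 0 of the 10 genes were called by edgeR (1 at an unadjusted p below 0.05, 1 by DESeq2 and 0 by limma-voom) and 2.07% of all were. The 60-day call in KO was lost without KO females replicate 2 (-0.21, adjusted p = 0.0595) and in 3 of 11 alternatives (adjusted p 0.0516 to 0.0695). The 30-day call was lost (-0.34, adjusted p = 0.0545) with the closing number of the sample titles in the fit, whose meaning the labels do not state and which was 2 for all KO females of 30 days.

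Hamp itself was not called between the sexes. In WT of 60 days 3 of the 4 males (30.6, 62.2 and 120 CPM) lay below every female (172, 240, 256 and 379 CPM), and the other male had 269 CPM. The log2 fold change was -1.12 ± 0.53 (95% interval -2.22 to -0.02, adjusted p = 0.127). It was -1.88 (adjusted p = 0.0120) without that male, replicate 3, -1.50 (adjusted p = 0.0431) by limma-voom and -1.55 (adjusted p = 0.0397) by limma on the deposited log2 values. These are settings that passed, out of 11 alternatives and 8 fits with a liver left out, whereas the main fit did not. The fit without replicate 3 drops the male that lay within the female range, so it is no separate evidence of a sex difference. In KO of 60 days the difference was -0.47 ± 0.53, and at 30 days it was 0.50 ± 0.52 in KO and -0.04 ± 0.52 in WT. Smad7, the inhibitory SMAD, had 16.3, 21.8, 18.1 and 13.9 CPM in WT males of 60 days, against 18.0, 20.1, 32.8 and 26.5 CPM in WT females (-0.48 ± 0.21, adjusted p = 0.103). Tfrc, Fth1 and Bmp6 had log2 sex differences between -0.21 and 0.41 at 60 days, and Tf had 0.05 and 0.17, with none called.

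**Figure D2:**
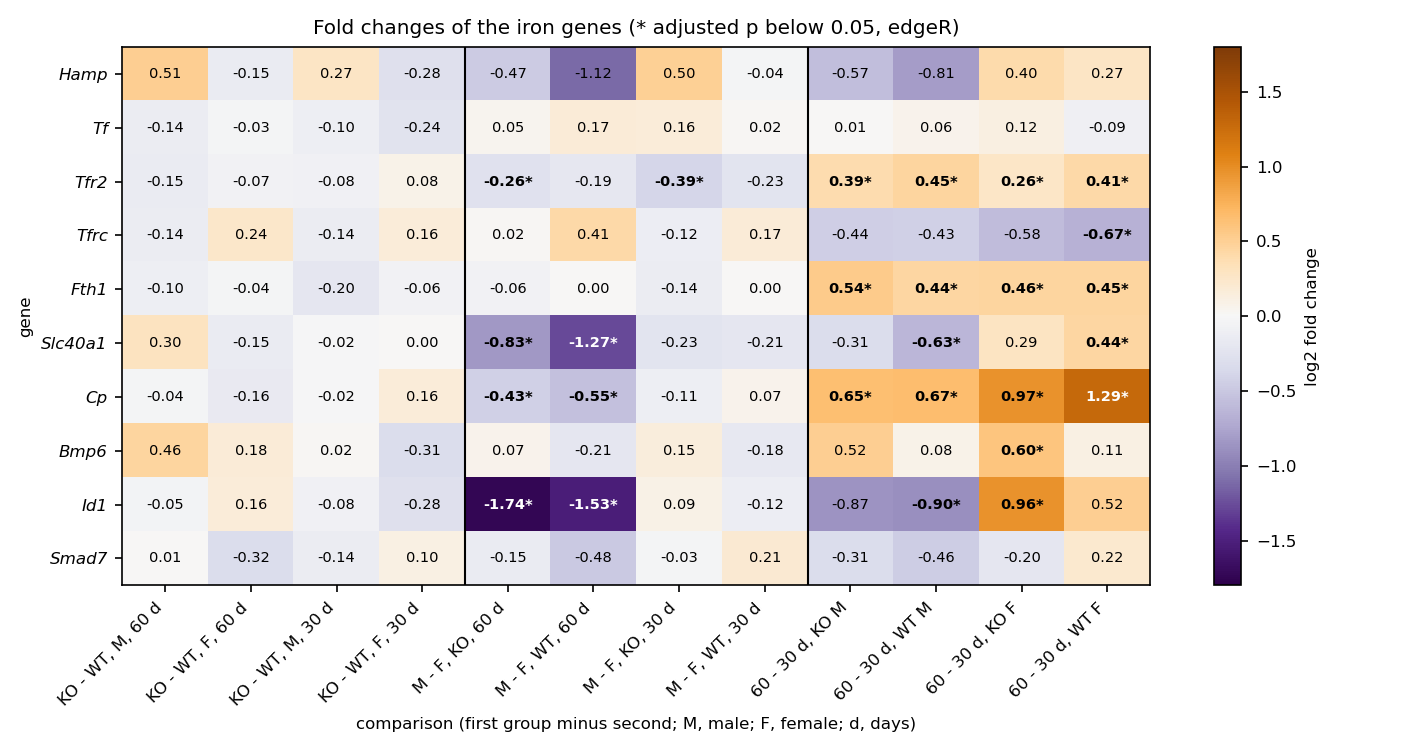
Log2 fold change of each iron gene (rows) in 12 comparisons (columns, first group over second), on a colour scale from -1.8 to 1.8; an asterisk and bold type mark an adjusted p below 0.05 by edgeR over 11002 genes. The left block (KO over WT) holds no called value, the middle block (males over females) holds 8, all negative, and the right block (60 over 30 days) holds 18.

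Transcripts of ferritin heavy chain, ceruloplasmin and the transferrin sensor were higher at 60 days than at 30 days in every group. Of the 10 genes, 3 were called in KO males, 5 in WT males, 5 in KO females and 5 in WT females, where 28.4%, 31.5%, 22.7% and 33.1% of all tested genes were called in the same order. Fth1, Cp and Tfr2 were called higher at 60 days in all 4 groups, and 8.16% of all tested genes were called in 1 direction in all 4. The libraries of 30 and of 60 days have sample titles of different forms. They held 16806943 to 21954929 gene reads at 30 days and 12951969 to 17133332 at 60 days. Age therefore cannot be told apart from any other difference between these sets of libraries, in all comparisons of age below.

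Markers of other liver cells differed with age as well. The sum of 10 stellate cell and fibroblast markers was 673 to 846 CPM in KO males of 60 days and 1143 to 1650 CPM in those of 30 days, and 607 to 666 CPM in KO females of 60 days and 1013 to 1180 CPM in those of 30 days. It was 502 to 747 CPM in WT males of 60 days and 1029 to 1353 CPM in those of 30 days, and 458 to 637 CPM in WT females of 60 days and 1236 to 1614 CPM in those of 30 days, so the ages did not overlap in any group. Col1a1, Col3a1 and Lrat of that list, Stab2 of the sinusoidal endothelial list and Marco of the Kupffer list were called lower at 60 days in all 4 groups. Other genes of these lists went the other way. Ecm1 of the stellate list was called higher at 60 days in KO males, WT males and WT females. Of the Kupffer list, Clec4f was called higher in KO males and WT females, and C1qa, C1qb, C1qc and Adgre1 in WT females. Cd5l was called lower in KO males and KO females. The Kupffer sums of the ages overlapped in every group. For 10 markers of sinusoidal endothelial cells, which make BMP6 in mice, the sum was 369 to 509 CPM in KO females of 60 days and 382 to 515 CPM in those of 30 days, whereas in WT females it was 322 to 434 CPM at 60 days and 437 to 535 CPM at 30 days, without overlap. In males it was 334 to 498 CPM at 60 days and 403 to 521 CPM at 30 days in KO, and 333 to 404 CPM at 60 days and 334 to 517 CPM at 30 days in WT. Of 13 acute phase genes of hepatocytes, 7 in KO males, 9 in WT males, 2 in KO females and 6 in WT females were called higher at 60 days, and 0, 0, 4 and 1 lower in the same order. Over all tested genes, 28.4%, 31.5%, 22.7% and 33.1% were called in either direction in that order. The part of these markers in the age differences of the 10 genes was not tested, apart from a fit with the Kupffer score.

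Fth1, the ferritin heavy chain, which oxidises iron as it is stored, had 1102, 1326, 1241 and 1286 CPM in KO males of 60 days, against 808, 844, 819 and 937 CPM in those of 30 days. In WT females it had 1320, 1340, 1324 and 1344 CPM at 60 days, against 872, 952, 1037 and 1052 CPM at 30 days. The ages did not overlap in either group, nor in the other 2. Log2 fold changes were 0.54, 0.44, 0.46 and 0.45 in KO males, WT males, KO females and WT females (SE 0.08 each, adjusted p 6.36e-06 to 9.26e-05), and all 4 calls held in each of 10 alternatives and with any single liver left out. Fth1 has many processed copies in mammalian genomes, and no source used here says how reads shared with such copies were counted.

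Cp rose by more. It had 2532, 3177, 3038 and 3486 CPM in KO males of 60 days, against 1872, 2138, 1811 and 1994 CPM at 30 days. In WT females it had 4589, 4451, 4407 and 4990 CPM at 60 days, against 1590, 1661, 1941 and 2352 CPM at 30 days. The rise was 2.44-fold in WT females (1.29 ± 0.13, adjusted p = 2.72e-09), 1.96-fold in KO females (0.97 ± 0.12, adjusted p = 9.60e-07), 1.59-fold in WT males (0.67 ± 0.12) and 1.57-fold in KO males (0.65 ± 0.12). All 4 calls held in each of 10 alternatives and with any single liver left out.

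Tfr2 rose by 0.39 in KO males, 0.45 in WT males, 0.26 in KO females and 0.41 in WT females on the log2 scale (SE 0.07 each). It had 531, 543, 568 and 539 CPM in WT males of 60 days, against 400, 393, 377 and 427 CPM in those of 30 days. In KO females it had 543, 659, 619 and 546 CPM at 60 days, against 501, 471, 514 and 496 CPM at 30 days. The ages stood apart in both groups, though only narrowly in KO females, where the call was lost without replicate 2 of 60 days (0.20, adjusted p = 0.0614) and with limma on the deposited log2 values (0.10, adjusted p = 0.308). Those values carry no scaling between libraries, and the median log2 fold change of all genes in that comparison was then -0.163.

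Slc40a1 differed with age in opposite directions in the 2 sexes of WT. Slc40a1 was called higher at 60 days in WT females (0.44 ± 0.12, adjusted p = 0.00601) and lower in WT males (-0.63 ± 0.13, adjusted p = 0.000286). It had 17.1, 18.4, 16.2 and 16.6 CPM in WT males of 60 days, against 26.3, 24.9, 20.6 and 34 CPM at 30 days. In KO the values were 0.29 ± 0.12 in females (adjusted p = 0.0899) and -0.31 ± 0.13 in males (adjusted p = 0.0590), neither of which passed. The WT female call was lost with limma on the deposited log2 values (0.30, adjusted p = 0.0651).

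Id1 was called higher at 60 days in KO females (0.96 ± 0.30, adjusted p = 0.0205) and lower in WT males (-0.90 ± 0.33, adjusted p = 0.0361). KO females had 14.0, 6.32, 9.35 and 4.41 CPM at 60 days, against 4.78, 3.40, 4.02 and 5.28 CPM at 30 days. WT males had 2.06, 2.68, 2.99 and 2.80 CPM at 60 days, against 3.25, 4.65, 8.22 and 3.34 CPM at 30 days. The KO female call rested on the highest liver, the library with photoreceptor transcripts, without which it was 0.62 (adjusted p = 0.148), and it was also lost without KO females of 30 days replicate 2 (adjusted p = 0.0695) or replicate 3 (adjusted p = 0.0505). The WT male call was lost without any of 6 of the 8 livers, and it was -0.51 (adjusted p = 0.244) without the 30-day liver of 8.22 CPM. In KO males the difference was -0.87 ± 0.33 (adjusted p = 0.0511) and in WT females 0.52 ± 0.30 (adjusted p = 0.187).

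Tfrc and Bmp6 were each called with age in 1 group only, near the threshold. Tfrc, the gene of transferrin receptor 1, had 57.3, 91.2, 53.3 and 90.8 CPM in WT females of 60 days, against 78.7, 88.3, 168 and 130 CPM at 30 days (-0.67 ± 0.24, adjusted p = 0.0360). These ranges overlapped, and the call was lost without WT females of 30 days replicate 3 or 4 or of 60 days replicate 1 or 3 (-0.61 to -0.44, adjusted p 0.0816 to 0.187). The other 3 groups had log2 fold changes of -0.58 to -0.43 for Tfrc. Bmp6 had 3.75, 2.45, 3.14 and 1.27 CPM in KO females of 60 days, against 1.30, 1.68, 2.21 and 1.78 CPM at 30 days (0.60 ± 0.22, adjusted p = 0.0463). The call was lost without any of 6 of the 8 livers and in 6 of 9 alternatives, and was 0.40 (adjusted p = 0.226) without the 60-day replicate 1.

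The dependence of the sex difference on age was tested directly. In KO it was called for 2 of the 10 genes, where 4.69% of all tested genes were called, and in WT for 3, where 9.00% were called. The sex difference (males minus females) of Slc40a1 at 60 days differed from that at 30 days by -0.60 ± 0.17 in KO (adjusted p = 0.0411) and by -1.07 ± 0.17 in WT (adjusted p = 0.000163). That of Id1 differed by -1.83 ± 0.45 in KO (adjusted p = 0.0141) and by -1.42 ± 0.44 in WT (adjusted p = 0.0413), and that of Cp by -0.62 ± 0.17 in WT (adjusted p = 0.0210). All these values were negative. At 30 days the log2 sex difference was -0.23 in KO and -0.21 in WT for Slc40a1, 0.09 in KO and -0.12 in WT for Id1, and 0.07 in WT for Cp, with none called. The WT value of Slc40a1 held in 9 of 9 alternatives and with any of the 16 livers left out, whereas its KO value held in 7 of 9 alternatives and in 8 of the 16 cases with a liver left out (adjusted p 0.0847 without the photoreceptor library). Id1 held in 7 of 9 alternatives and with any liver left out in KO, where it was -1.49 at its smallest, but in only 4 of 9 alternatives and 5 of 16 cases with a liver left out in WT, where it was -1.03 (adjusted p = 0.133) without males of 30 days replicate 3. Cp held in 9 of 9 alternatives and 12 of 16 cases. With the clock score in the fit, neither KO value was called (-0.47, adjusted p = 0.243 for Slc40a1 and -1.65, adjusted p = 0.0876 for Id1), nor was the WT value of Id1 (-1.37, adjusted p = 0.0571).

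Other genes of the iron pathway were read from lists that share no gene with the 10. Of 102 symbols, 92 were in the table and 85 were tested. KO differed from WT by edgeR for 0 of 85 in males of 60 days, males of 30 days and females of 30 days, with 9, 6 and 4 genes at an unadjusted p below 0.05. In females of 60 days 4 of 85 were called, all lower in KO, which is 4.71% where 6.77% of all tested genes were called. They were Il6st, the shared receptor chain of interleukin 6 signalling (-0.73 ± 0.12, adjusted p = 0.000421), Abcb6, a porphyrin transporter (-0.39 ± 0.07, adjusted p = 0.000739), Hp, haptoglobin, which binds free hemoglobin (-0.52 ± 0.14, adjusted p = 0.0258), and Atoh8, a BMP target (-0.44 ± 0.12, adjusted p = 0.0261). Il6st averaged 261 CPM in KO females and 434 CPM in WT females, without overlap. Hp is also an acute phase gene, and 9 of 13 acute phase genes tested were lower in KO females of 60 days, with sums of 54873 to 67675 CPM in KO and 71425 to 74815 CPM in WT. The sums of clock genes were 206 to 360 CPM in KO and 176 to 276 CPM in WT in the same comparison. The part of the acute phase genes in these values was not tested. Without the photoreceptor library 399 genes were called there, against 745 with it, and 2 of the 85 remained called, Il6st (-0.69, adjusted p = 0.00266) and Abcb6 (-0.33, adjusted p = 0.00494), while Hp (-0.38, adjusted p = 0.118) and Atoh8 (-0.41, adjusted p = 0.0802) did not. With the clock score in the fit 1 remained, Il6st (-0.69, adjusted p = 0.0260).

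Over the 4 combinations together, KO livers had higher Aco1, a cytosolic aconitase that also senses iron (0.12 ± 0.03, adjusted p = 0.0395). They had lower Abcb6 (-0.16 ± 0.03, adjusted p = 0.00682), Cisd1, an iron-sulfur protein of the outer mitochondrial membrane (-0.20 ± 0.04, adjusted p = 0.00905), Hp (-0.33 ± 0.07, adjusted p = 0.0117), Furin, a protease (-0.10 ± 0.03, adjusted p = 0.0419), and Il6st (-0.21 ± 0.06, adjusted p = 0.0490). These 6 were 7.06% of the 85 genes, where 3.12% of all tested genes were called. Without the photoreceptor library Abcb6, Cisd1 and Hp remained called (adjusted p 0.0117 to 0.0153), and with the clock score 0 of the 6 did (adjusted p 0.227 to 0.395). With that score the log2 fold changes of Aco1 (0.11), Furin (-0.10), Il6st (-0.19) and Hp (-0.27) stayed near those above while their SEs were larger (0.04, 0.04, 0.08 and 0.09), whereas Cisd1 had -0.15 and Abcb6 -0.08.

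Between the sexes at 60 days, 13 of the 85 genes were called higher and 9 lower in KO males than in KO females (25.9%, where 18.5% of all were called), and with the clock score in the fit 8 and 5 were. Without the photoreceptor library 11 were called higher and 9 lower in KO males, and 19 of these 20 were also called with it. In WT, 13 were called higher and 15 lower in males (32.9%, where 26.4% were called). Called in both genotypes were 18 of the 85, all 18 in the same direction, while 12.8% of all tested genes were called in both. Of 11 tested genes of heme breakdown and of heme and hemoglobin carriers, 3 were called higher and 2 lower in males of each genotype. Flvcr2, a heme transporter family member, averaged 10.8 CPM in KO males and 29.9 CPM in KO females, and 8.28 CPM in WT males and 38.7 CPM in WT females (-1.46 ± 0.21 in KO and -2.21 ± 0.21 in WT). It was also lower in males at 30 days (-0.92 ± 0.20 in KO and -1.23 ± 0.21 in WT). Lrp1, the receptor for heme bound to hemopexin, was lower in males (-0.74 ± 0.11 in KO and -0.87 ± 0.11 in WT), whereas Slc46a1, a heme and folate carrier, was higher in males (0.83 ± 0.11 in KO and 0.84 ± 0.11 in WT). No male overlapped a female of its genotype for these 3 genes at 60 days.

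Among hepcidin regulators, Hfe, the hemochromatosis gene, was higher in males (0.79 ± 0.15 in KO, adjusted p = 0.000193, and 1.11 ± 0.15 in WT, adjusted p = 1.51e-06). Tmprss6, the protease that restrains hepcidin, was lower in KO males at 60 days (-0.35 ± 0.07, adjusted p = 0.000970) and at 30 days (-0.30 ± 0.07, adjusted p = 0.0230). Other BMP targets did not share 1 direction. Bambi, a decoy receptor, was higher in males (0.88 ± 0.21 in KO and 1.19 ± 0.22 in WT), while Id2, Id3 and Atoh8 were called lower in WT males (-0.74 ± 0.20, -0.56 ± 0.17 and -0.65 ± 0.12) and Smad6 was called lower in KO males (-0.47 ± 0.15). Of the 10 tested genes of inflammatory input to hepcidin, 5 were lower in WT males, among them the receptor chains Il6r (-0.95 ± 0.18) and Il6st (-0.65 ± 0.12), the transcription factor Stat3 (-0.53 ± 0.11) and the feedback inhibitor Socs3 (-1.37 ± 0.28), and 1 was lower in KO males, Stat3 (-0.37 ± 0.11). Over all tested genes, 26.4% were called in WT and 18.5% in KO in these comparisons. A call in 1 genotype alone does not show that the sex difference differed between genotypes. In edgeR's test of sex by genotype 0 of the 85 genes were called at either age. Of the 12 tested genes of uptake, storage and release, Ncoa4, the receptor for ferritin breakdown (-0.31 ± 0.07 in KO and -0.32 ± 0.07 in WT), and Slc39a14, an importer of free iron (-0.30 ± 0.08 in KO and -0.43 ± 0.08 in WT), were lower in males. Steap3, a ferrireductase, was higher in males (0.48 ± 0.13 in KO and 0.62 ± 0.13 in WT).

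**Figure D3:**
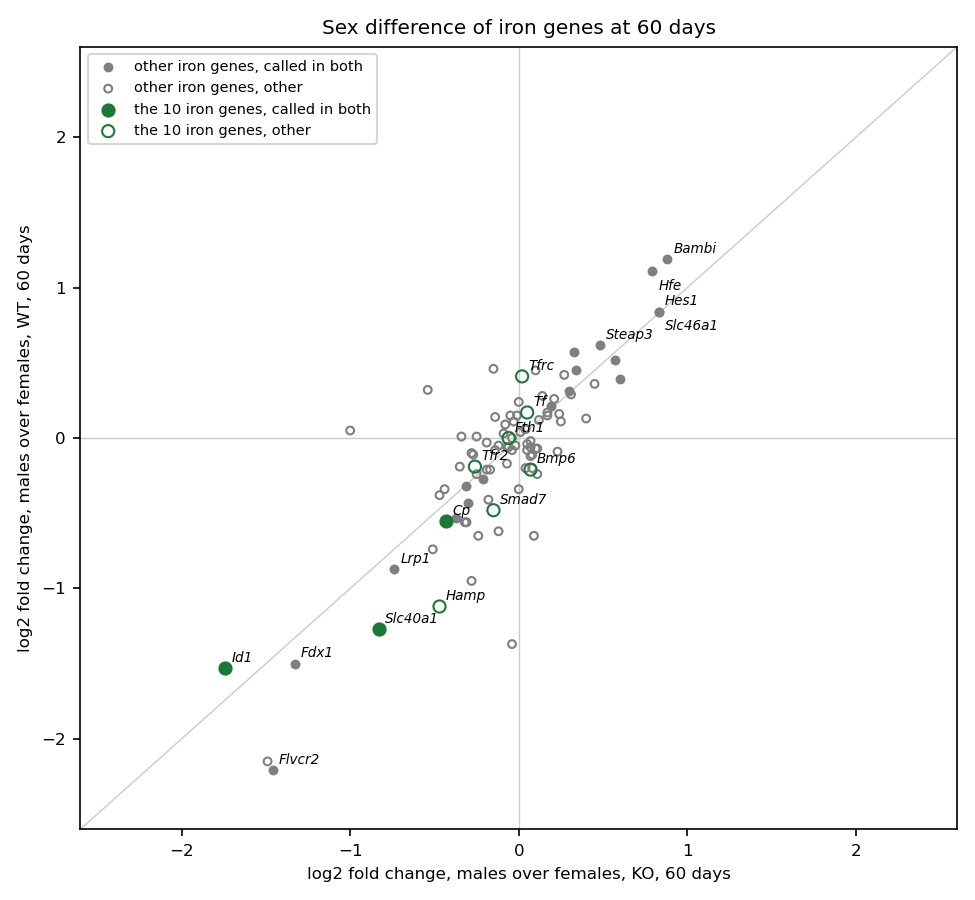
Log2 sex difference (males minus females) at 60 days in KO (horizontal axis) and in WT (vertical axis); each point is 1 gene, green for the 10 genes and grey for the other iron genes, filled where called in both genotypes, and the diagonal marks equal differences. Slc40a1, Id1 and Cp lie in the lower left, and the iron genes called in both genotypes, Flvcr2, Fdx1, Slc46a1 and Hfe among them, have the same sign in both.

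With age, 7 of the 85 genes were called in 1 direction in all 4 groups, where 8.16% of all tested genes were. Slc46a1, Hpx (hemopexin, which carries heme in plasma), Blvrb (a biliverdin reductase), Tmprss6 and Socs3 were higher at 60 days, and Steap4 (a metalloreductase) and Abcb6 were lower. Hpx rose by 1.05 ± 0.12 in KO males, 0.91 ± 0.12 in WT males, 0.44 ± 0.11 in KO females and 0.33 ± 0.11 in WT females. In all, 17 of the 85 genes were called in KO males (20%, where 28.4% of all were), 19 in WT males (22.4%, where 31.5% were), 22 in KO females (25.9%, where 22.7% were) and 27 in WT females (31.8%, where 33.1% were), shares near or below those of all genes. Without the photoreceptor library 21 were called in KO females, of which 18 were among the 22 called with it.

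Since Hamp varied so much between rats of a group, its deviations from the group mean were set against those of 5 genes tied to hepcidin, over the 32 livers, with 100000 two-sided permutations within groups and p adjusted over the 5. Hamp was higher in livers with more Id1 (r = 0.438, adjusted p = 0.0335, and rho = 0.513, adjusted p = 0.0305) and lower in livers with more Tfrc (r = -0.527, adjusted p = 0.0335, and rho = -0.466, adjusted p = 0.0434). For Smad7 r was 0.350 (adjusted p = 0.176) and rho 0.454 (adjusted p = 0.0434), for Bmp6 r was 0.148 and rho 0.0205, and for Tfr2 r was 0.126 and rho 0.0671. Without the 2 livers farthest from the median of the other gene, r was 0.410 for Id1 and -0.451 for Tfrc, neither of which passed after adjustment (adjusted p = 0.0729 for each, unadjusted p = 0.0262 for Id1 and 0.0292 for Tfrc). Among the 16 livers of 60 days r was 0.323 for Id1 (adjusted p = 0.315) and -0.573 for Tfrc (adjusted p = 0.180). Among the 16 of 30 days r was 0.728 for Id1 (adjusted p = 0.0126) and -0.456 for Tfrc (adjusted p = 0.366).

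**Figure D4:**
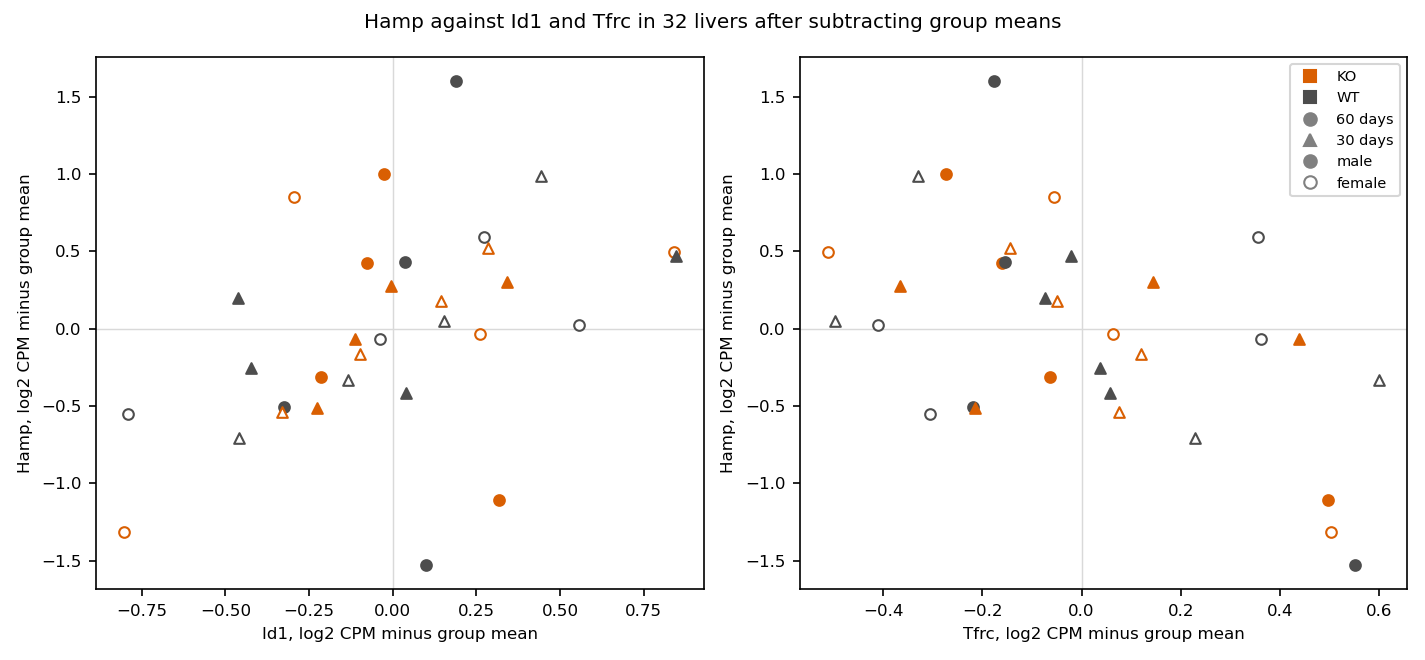
Deviation of Hamp from its group mean (vertical axis, log2 CPM) against that of Id1 and of Tfrc (horizontal axes, log2 CPM); each point is 1 of 32 livers, orange for KO and grey for WT, round for 60 days and triangular for 30 days, filled for males and open for females. Over all livers the points rise with Id1 (r = 0.438) and fall with Tfrc (r = -0.527).

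The genes whose log2 CPM followed Hamp most closely over the 32 livers, as a description that also carries the group differences, were Zbtb12 (r = 0.675), Btg3 (0.651), Nono (0.646), Id3 (0.631) and LOC297756 (0.617). For Tfrc they were Coq2 and Fmo1 (0.722 each), Sctr (0.718), Aqp8 (0.707) and Ostc (0.696). For Id1 they were Dnm1 (0.847), Nucks1 (0.806), Txndc5 (0.796), Disp1 (0.785) and Paqr4 (0.783). For Slc40a1, a gene added to this reading after its values were seen, they were Cerk (0.915), Prickle1 (0.909), Slc37a2 (0.900), Ugt2b10 (0.893) and Zfp516 (0.891).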

How the data were processed

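Polyadenylated RNA of 32 rat livers, extracted with Trizol and prepared with a stranded mRNA kit per the labels, was sequenced, and the authors deposited raw read counts per gene and a table of log2 values. The submitters' processing notes name STAR, Cufflinks, limma and the build Rnor_5.0; no source used here gives their roles or versions, the annotation or the handling of strand and of shared reads. The deposited log2 values of 11344 genes matched log2 counts per library total, with 0.5 added to counts and 1 to totals, and carry no scaling between libraries. Rows that name no gene stayed out of library sizes: reads on no feature were 18.05% to 21.18% and ambiguous reads 0.262% to 0.648%. Columns of other samples that were set aside numbered 0.

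Genes were kept by filterByExpr (minimum count 10), scaled by TMM and fitted with edgeR 4.0.16 (robust quasi-likelihood, 8 group means, 24 residual degrees of freedom, R 4.3.3); SE is the log2 fold change over the root of F. Benjamini-Hochberg adjustment ran over 11002 genes at 0.05. Total gene reads of 12951969 to 21954929 per library set the precision, and intervals are at 95%. The fit was tried on simulated counts in which genes differed only in KO females of 60 days, unlike the data. KO against WT there recovered 62.7% of 1.5-fold and 86.6% of 2-fold changes, with 13 false calls among 10802 unchanged genes. Sex by genotype at 60 days recovered 29.9% and 64.2%, with 8 false calls. Alternatives were limma 3.58.1 (voom, and on the deposited values), DESeq2 1.42.0, other scalings and filters, fewer libraries, a clock gene score, the number closing the sample titles, and each liver left out; a Kupffer marker score, and for the other iron genes the clock score and the fit without the photoreceptor library, were added after seeing the data. The 10 genes and all lists were chosen with earlier results of these data known. Named were the 10 genes, up to 4 called genes per iron list and comparison with the smallest adjusted p, and the 5 genes most correlated with Hamp, Tfrc and Id1. Cell type and clock markers were named apart from this rule. The clock score was the mean of Dbp, Tef, Per2, Per3, Nr1d1 and Ciart less that of Arntl, Npas2 and Clock, where present. Replicates of a group differed by more than sampling noise.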

Additional observations from a re-analysis of the deposited data

Results flagged for a closer look

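In groups of 4 livers, 4 of the 80 sets of values (10 genes in 8 groups) had a liver far from the other 3 by Dixon's criterion, and chance gives about 1 in 20. Tfrc was 139 CPM in WT males of 60 days replicate 4, against 81.3 to 85 CPM in the other 3. Smad7 was 34.2 CPM in WT males of 30 days replicate 3, against 19.6 to 21.9 CPM. Bmp6 was 2.28 CPM in KO males of 30 days replicate 1, against 1.81 to 1.84 CPM, and 2.08 CPM in WT females of 60 days replicate 2, against 2.38 to 2.44 CPM.

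The difference between males and females changed between 30 and 60 days for Slc40a1 (-0.60 in KO and -1.07 in WT), Id1 (-1.83 in KO and -1.42 in WT) and Cp (-0.62 in WT), each by edgeR's test of the difference itself.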

How the results depend on the processing

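No paired analysis was possible because no label ties a rat of one group to a rat of another. Of the values of the 10 genes under alternatives, 3990 were counted as the same. These kept a call and its direction or, without a call in either fit, moved by less than the SE of the main value. Another 80 lost and 39 gained a call, and 39 without a call moved by that SE or more. Only 1 reversed, Tf between 60 and 30 days in KO males (-0.18 on the deposited log2 values). The causes were not tested. Of the 10 genes, DESeq2 called 1 for KO against WT in females of 30 days, and between the sexes 1 in WT of 30 days and 5 in WT of 60 days, where a minimum count of 50 (which drops Bmp6) and the deposited log2 values also gave 5. With the title number 0 were called by sex in KO of 30 days. With the clock score 2 were called by sex in KO of 60 days, 3 with age in KO females, 5 with age in KO males, 0 for KO against WT over all combinations and 0 for sex by age in KO. The deposited log2 values gave 3 with age in KO females, 8 in KO males and 0 for KO against WT over all combinations. Upper-quartile scaling and the Kupffer score gave 5 each with age in KO males, and for sex by age in KO no filter and limma-voom gave 1 each.

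With any liver left out, KO against WT gave 0 to 0 in each combination and 0 to 1 over all, sex 1 to 1 in KO and 0 to 1 in WT at 30 days, 3 to 4 in KO and 3 to 6 in WT at 60 days. Age gave 3 to 6 in KO females, 4 to 5 in WT females, 3 to 4 in KO males and 4 to 5 in WT males, and sex by age 1 to 2 in KO and 1 to 3 in WT. The r of Hamp with Id1 was 0.410 without the 2 farthest livers and 0.323 at 60 days, with Bmp6 -0.193 without them, with Tfr2 -0.316 at 30 days, and with Tfrc -0.451, -0.456 (30 days) and -0.573 (60 days).

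Over all genes, 745 were called for KO against WT in females of 60 days, but 112 with the clock score, 277 with the libraries of 1 age, 56 with the groups compared alone and 399 to 978 with a liver left out. In females of 30 days 33 were called, against 6 with the clock score and 92 by DESeq2, and over all combinations 343, against 27 with the clock score and 557 by DESeq2. Without scaling between libraries the share of age calls that were higher was 15.0% in KO males and 20.7% in WT males, against 49.2% and 49.8%, and 17.3% in KO females and 26% in WT females, against 46.9% and 48.3%. Depth limits Id1 and Bmp6 most.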
